A study of Homo sapiens with 6 samples.

Results

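The collagen genes are described here as they were measured in MDA-MB-231 cells, a human triple-negative breast cancer line, with and without overexpression of SRPK2, a kinase of serine- and arginine-rich splicing factors. The members are the protein-coding genes of the deposited read count table whose symbol has the form COL, number, A, number. There were 34 of them among 29710 genes, and the 23 with at least 60 reads summed over the 6 libraries were tested, within a fit of all 16360 genes above that limit. Gene expression was measured by strand-specific paired-end RNA sequencing in 3 biological replicates carrying an empty vector (the controls) and 3 expressing SRPK2-FLAG, all in the same parental line. The labels do not say how the constructs were delivered, whether cells were cloned, or how long SRPK2 was expressed. SRPK2 mRNA, the check of the labels, rose 6.53-fold (edgeR adjusted p = 3.42e-08) and stood at 5.43 ± 0.42 FPKM in the controls and 36.4 ± 6.61 in the SRPK2 libraries (SD, n = 3 each). FPKM is a read count scaled to gene length and library size.

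Collagens are proteins of the extracellular matrix built from 3 chains that wind into a triple helix through long stretches of a short repeat that begins with glycine. Fibrillar collagens (types I, II, III, V, XI, XXIV and XXVII) assemble into the banded fibrils of connective tissue. Collagen IV forms the sheet-like network of basement membranes, and collagens XV and XVIII are proteoglycan-like collagens of the basement membrane zone. The remaining types include the beaded filaments of collagen VI, the anchoring fibrils of collagen VII, short-chain networks (VIII, X), the fibril-associated collagens with interrupted helices (FACITs) and collagens with a transmembrane segment. In breast tumours most fibrillar collagen is made by fibroblasts, while carcinoma cells express a smaller set of their own.

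Several collagen chains that assemble with each other lie side by side in the genome. COL4A1 and COL4A2, which together form the most widespread collagen IV trimer, are arranged head to head on chromosome 13, and COL4A5 and COL4A6 are arranged likewise on chromosome X. Their RefSeq promoter windows (300 bases, from 250 before to 50 after the start of transcription, GRCh38.p14) are shown because the levels of these pairs are compared as chain ratios, and that of COL6A2 because it is the neighbour of COL6A1, whose promoter is not shown. Capitals mark matches to the TATA box letters TATAAA, to the core of the NF-Y motif, CCAAT, and to the core of the Sp1 motif, GGGCGG, on either strand.
COL4A1, chr13:110307108-110307407, minus strand: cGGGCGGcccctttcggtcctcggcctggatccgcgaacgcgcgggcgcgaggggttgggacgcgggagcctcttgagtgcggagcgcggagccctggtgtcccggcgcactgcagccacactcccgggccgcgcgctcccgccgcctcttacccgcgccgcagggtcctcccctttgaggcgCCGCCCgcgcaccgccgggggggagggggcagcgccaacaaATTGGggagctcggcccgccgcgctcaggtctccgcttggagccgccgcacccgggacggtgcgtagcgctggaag
COL4A2, chr13:110307034-110307333, plus strand: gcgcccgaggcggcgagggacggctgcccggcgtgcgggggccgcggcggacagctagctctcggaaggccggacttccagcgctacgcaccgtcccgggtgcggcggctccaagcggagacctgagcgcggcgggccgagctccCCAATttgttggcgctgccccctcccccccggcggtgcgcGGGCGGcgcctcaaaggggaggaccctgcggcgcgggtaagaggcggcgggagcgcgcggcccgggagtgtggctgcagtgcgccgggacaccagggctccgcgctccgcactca
COL4A5, chrX:108439588-108439887, plus strand: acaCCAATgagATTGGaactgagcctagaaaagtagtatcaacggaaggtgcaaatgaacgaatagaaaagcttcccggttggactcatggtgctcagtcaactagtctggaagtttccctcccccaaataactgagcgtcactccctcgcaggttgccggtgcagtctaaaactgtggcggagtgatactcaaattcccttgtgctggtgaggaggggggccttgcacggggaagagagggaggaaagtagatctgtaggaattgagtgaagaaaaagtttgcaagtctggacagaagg
COL4A6, chrX:108439409-108439708, minus strand: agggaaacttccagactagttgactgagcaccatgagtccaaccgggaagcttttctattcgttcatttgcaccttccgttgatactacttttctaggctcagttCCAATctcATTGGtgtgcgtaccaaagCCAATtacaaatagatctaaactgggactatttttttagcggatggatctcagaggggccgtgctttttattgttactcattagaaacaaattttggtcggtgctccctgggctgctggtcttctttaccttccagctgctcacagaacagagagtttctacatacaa
COL6A2, chr21:46097862-46098161, plus strand: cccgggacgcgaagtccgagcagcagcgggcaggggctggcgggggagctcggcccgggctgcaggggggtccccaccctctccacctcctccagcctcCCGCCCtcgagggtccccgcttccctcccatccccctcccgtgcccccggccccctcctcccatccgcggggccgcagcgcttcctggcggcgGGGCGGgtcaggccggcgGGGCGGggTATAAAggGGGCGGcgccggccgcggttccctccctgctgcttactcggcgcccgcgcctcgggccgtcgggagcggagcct

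The start sites of COL4A1 and COL4A2 are 127 bases apart, so that 226 bases of both windows are the same DNA read from opposite strands. The start site of COL4A5 and the nearer of the start sites listed for COL4A6 are 380 bases apart, with 121 bases shared. The other COL4A6 window (chrX:108438373-108438672), which is not shown, does not overlap with that of COL4A5 and holds 1 GGGCGG and no CCAAT. The pairs differ in base composition, with 76.7% and 77.7% G or C for COL4A1 and COL4A2 and 49.3% and 43.7% for COL4A5 and COL4A6 as shown. All of the 4 windows shown for these pairs hold CCAAT, and none holds TATAAA. The CCAAT of COL4A1 and that of COL4A2 are the same site, and those of COL4A5 lie in the bases shared with COL4A6. Within a pair these shared sites are therefore not separate occurrences. The COL4A6 window shown holds 3 CCAAT and that of COL4A5 holds 2, as 1 site of COL4A6 lies outside the shared bases. The COL6A2 window holds 1 TATAAA and 4 GGGCGG and no CCAAT. RefSeq windows were found for 18 of the 23 tested collagen genes. Among these 18 genes, 13 had GGGCGG in a window (48.3% of all genes with a window did), 5 had CCAAT (39.7%) and 5 had TATAAA (13.99%). TATAAA was found for COL6A2, COL7A1, COL13A1, COL17A1 and COL18A1.

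In the control cells the mean levels of the tested collagens ran from 13.1 down to 0.03 FPKM. COL6A1, a chain of the beaded filaments of collagen VI, had the highest level at 13.1 ± 1.12 FPKM, above that of 76.4% of the tested protein-coding genes. It was followed by COL8A1, a short-chain network collagen, at 9.60 ± 0.503, and by COL5A1, a chain of the minor fibrillar collagen V, at 7.93 ± 0.487 (SD, n = 3 each). COL18A1, the source of endostatin, stood at 7.54 ± 0.0603 and the transmembrane collagen COL13A1 at 7.24 ± 0.394. Across the 3 control libraries COL5A1 overlapped with COL18A1 and COL18A1 with COL13A1, while COL6A1 and COL8A1 did not overlap with the next gene in this order. COL6A2, COL4A2, COL12A1, COL17A1, COL7A1 and COL4A1 lay between 6.03 and 2.68 FPKM. In all, 14 of the 23 had at least 1 FPKM, and 7 exceeded the median of the tested protein-coding genes, 4.16 FPKM. This order, like the class sums below, depends on the gene length behind the FPKM values. For COL13A1 reads and FPKM implied 12672 bases, while its longest coding transcript has 3187. For COL6A1 these lengths were 6097 and 4238. An order by transcript length was not computed.

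**Figure D1:**
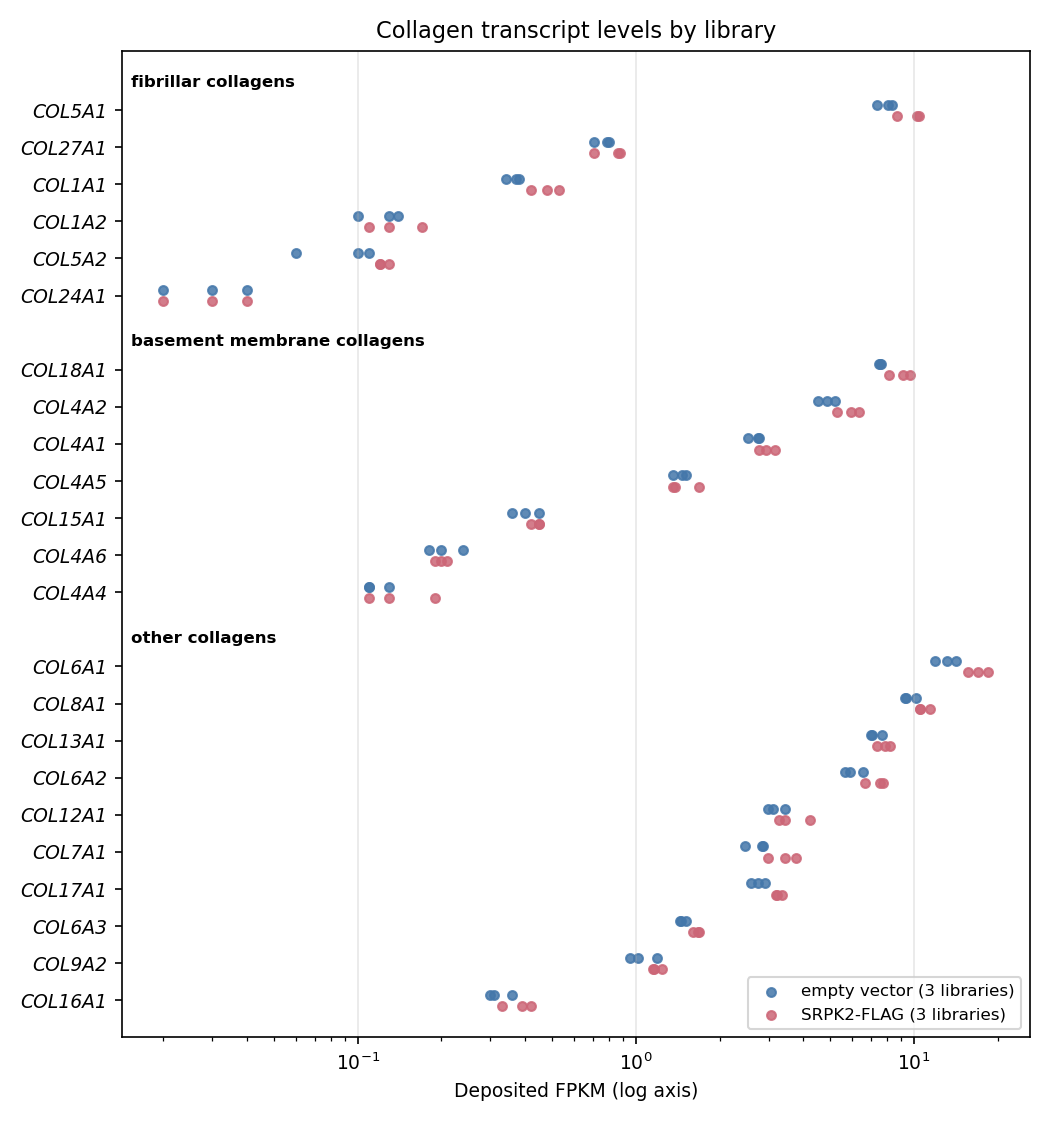
Deposited FPKM (horizontal log axis) of the 23 tested collagen genes in each library, 3 with the empty vector (blue) and 3 with SRPK2-FLAG (red), grouped by class and ordered by level. The fibrillar class has COL5A1 as its only gene above 1 FPKM, and the points of COL6A1, the collagen with the highest FPKM, are separate between the groups.

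The classes were unevenly represented. Summed over a control library, fibrillar collagens reached 8.79 to 9.66 FPKM, most of it from COL5A1, basement membrane collagens 16.7 to 17.7 and other types 44.6 to 48.9. The collagen I chains of bone and skin were scarce, at 0.363 ± 0.0208 FPKM for COL1A1 and 0.123 ± 0.0208 for COL1A2, and COL3A1, the collagen III chain of soft tissue, had 6 reads in all 6 libraries together. The 10 other genes under the limit were COL2A1, COL25A1, COL9A1, COL20A1, COL21A1, COL28A1, COL9A3, COL8A2, COL4A3 and COL11A2, with 1 to 52 reads. COL5A3, COL6A5, COL6A6, COL10A1, COL11A1, COL14A1, COL19A1, COL22A1, COL23A1 and COL26A1 were not analysed here.

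COL6A1 was the only tested collagen gene that passed the threshold when SRPK2 libraries were compared with controls, and it rose 1.27-fold. Of the 23 tested collagen genes 1 rose and 0 fell in edgeR's quasi-likelihood test at an adjusted p under 0.05, where 0.385% of all tested genes rose and 0.0733% fell. At an unadjusted p under 0.05 there were 10 collagen genes, beside 17.3% of all tested genes. This fit had group as its only term. With replicate number as a second term 12 collagen genes rose, beside 10.8% of all tested genes. Most differences were small and had the same sign, as 21 of the 23 log2 fold changes were above 0 (51.2% of all genes), with a median of 0.16 and a range from -0.09 to 0.48 (the median of all tested genes was 0.00). For 11 collagen genes all 3 SRPK2 libraries lay above all 3 controls in CPM (reads scaled to library size, with TMM factors), which held for 11.5% of all tested genes, and for 0 they lay below (8.71%). With RLE size factors the count above the controls was 9, without COL4A2 and COL6A2, beside 10.6% of all tested genes. The chains share libraries and were chosen with earlier results of these data known, so these counts are a description.

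**Figure D2:**
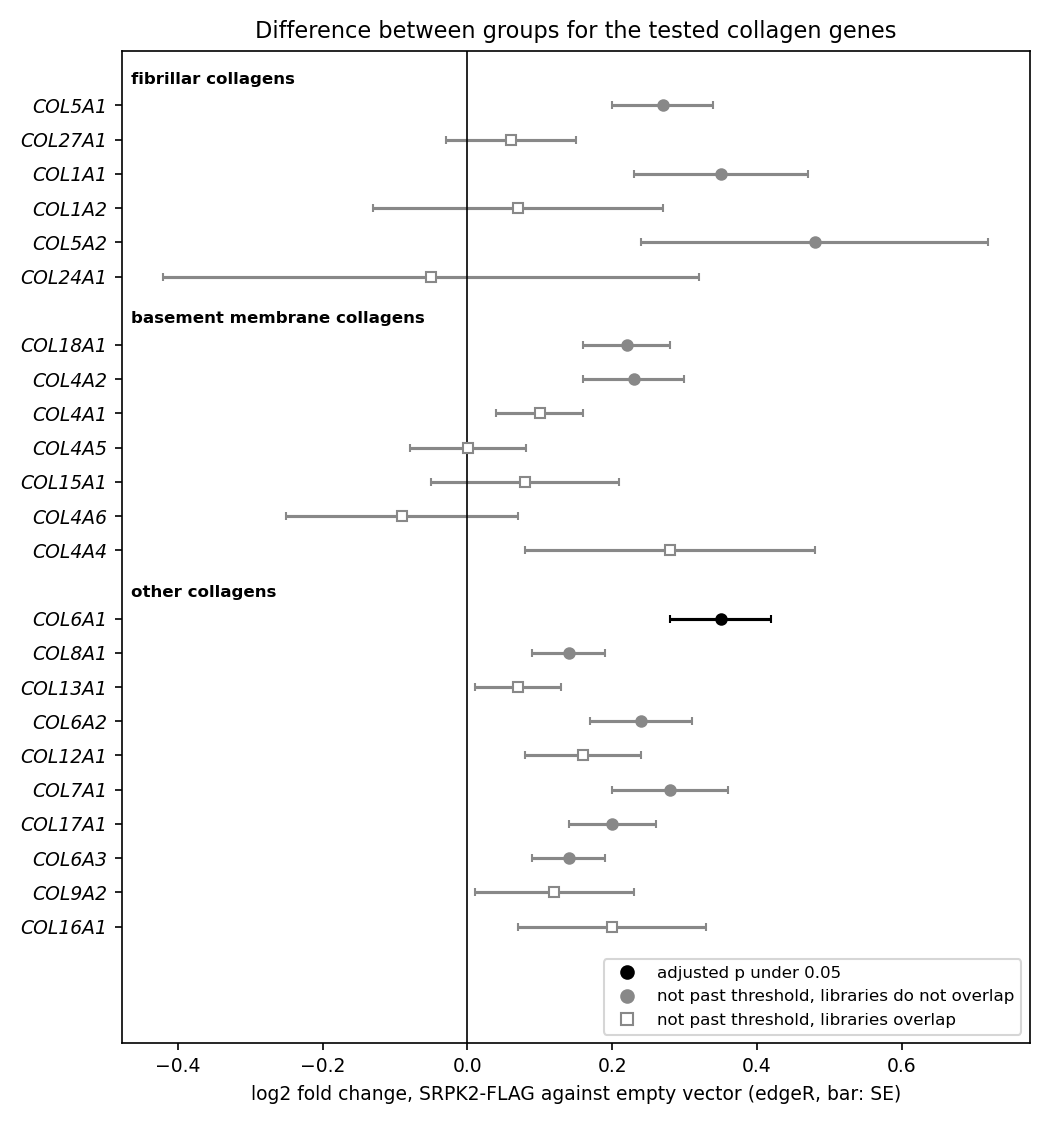
edgeR log2 fold change of SRPK2-FLAG against empty vector (horizontal axis, bars are SE) for the 23 tested collagen genes by class. The filled black point is COL6A1 at 0.35, the only gene past an adjusted p of 0.05, filled grey points are the 10 others whose libraries did not overlap between groups, and open squares are the 12 whose libraries overlapped.

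Among the fibrillar collagens 0 of 6 tested genes passed the threshold in edgeR, and 0 with DESeq2 or limma-voom. At an unadjusted p under 0.05 in edgeR there were 2, beside 17.3% of all tested genes. The median log2 fold change of the 6 genes was 0.17. DESeq2 gave no adjusted p for COL1A2, COL5A2 and COL24A1, so they could not pass there, and an adjusted p of 0.0505 for COL5A1. COL5A1, the most abundant, read 8.08, 7.39 and 8.33 FPKM in the controls and 10.44, 8.70 and 10.27 with SRPK2. The groups did not overlap, and SRPK2 replicate 2 was closest to the controls (log2 fold change 0.27, SE 0.07, edgeR adjusted p = 0.120). COL1A1 read 0.38, 0.37 and 0.34 FPKM in the controls and 0.53, 0.42 and 0.48 with SRPK2, again without overlap. Its log2 fold change was 0.35 (SE 0.12, edgeR adjusted p = 0.204), from 123 to 178 reads a library. COL1A2, the partner of COL1A1 in the collagen I trimer, overlapped between the groups (0.10 to 0.14 FPKM against 0.11 to 0.17) with a log2 fold change of 0.07 (SE 0.20).

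COL5A2, the partner of COL5A1 in collagen V, had the largest value of all 23 genes, 0.48, but also a wide error (SE 0.24, edgeR adjusted p = 0.319). It was counted with 31, 16 and 28 reads in the controls and 31, 34 and 40 with SRPK2. The low reading of control replicate 2 stood apart from the rest, and without that replicate the log2 fold change was 0.28 (edgeR adjusted p = 0.714). COL27A1, a fibrillar collagen of cartilage, overlapped (log2 fold change 0.06, SE 0.09, edgeR adjusted p = 0.770). COL24A1, with 63 reads in all, lay just above the limit for testing and had a log2 fold change of -0.05 (SE 0.37). COL11A2, with 52 reads, lay just below it.

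Basement membrane collagens likewise had 0 of 7 tested genes past the threshold in edgeR, and 0 with DESeq2 or limma-voom. At an unadjusted p under 0.05 in edgeR there were 2, beside 17.3% of all tested genes. The median of the 7 genes was 0.10. For COL4A4 DESeq2 gave no adjusted p. COL18A1 varied little among the controls, at 7.60, 7.55 and 7.48 FPKM, and read 9.11, 8.13 and 9.71 with SRPK2. All SRPK2 libraries were higher (log2 fold change 0.22, SE 0.06, edgeR adjusted p = 0.148). COL4A2 read 5.18, 4.53 and 4.87 FPKM in the controls and 5.95, 5.28 and 6.33 with SRPK2, with SRPK2 replicate 2 only just above control replicate 1 (0.23, SE 0.07, edgeR adjusted p = 0.157). COL4A1, its head-to-head neighbour, read 2.77, 2.53 and 2.75 against 2.94, 2.77 and 3.16. Here SRPK2 replicate 2 and control replicate 1 tied (0.10, SE 0.06, edgeR adjusted p = 0.352).

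The collagen IV chains of specialised basement membranes, like COL4A1, overlapped between the groups. COL4A5 had a mean of 1.44 ± 0.0764 FPKM in the controls and 1.48 ± 0.185 with SRPK2 (SD, n = 3 each), with overlapping libraries and an edgeR adjusted p of 0.998. COL4A6 had 60 to 89 reads in a control library and 65 to 79 in an SRPK2 library (log2 fold change -0.09, SE 0.16). COL4A4, a chain of the collagen IV of kidney and inner ear, reached 0.28 on the log2 scale (SE 0.20, edgeR adjusted p = 0.473), which rested mainly on the 91 reads of SRPK2 replicate 3. The other 5 libraries had 46 to 63, and without SRPK2 replicate 3 the value was 0.05. COL15A1 overlapped as well, at 0.36 to 0.45 FPKM against 0.42 to 0.45 (0.08, SE 0.13), and its value ran from 0.005 without control replicate 2 to 0.18 without control replicate 1.

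Among the 10 tested genes of the other types, the gene that passed and 5 more had separate groups with SRPK2 higher. This held for 11.5% of all tested genes. COL6A1 read 14.13, 11.89 and 13.14 FPKM in the controls and 16.98, 15.66 and 18.53 with SRPK2. Every SRPK2 library exceeded every control, and the log2 fold change was 0.35 ± 0.07 (SE, edgeR adjusted p = 0.0488). COL6A1 (ENSG00000142156.16) lies on chromosome 21 from 45981737 to 46005050 on the plus strand (GRCh38, GENCODE 29). Its call is marginal. It was lost with RLE size factors (edgeR adjusted p = 0.0508) and in each of the 5 fits that omitted a library and kept SRPK2 replicate 2 (0.0755 to 0.202, at log2 fold changes of 0.29 to 0.41). In 11 of the 21 alternatives COL6A1 passed. Among them were DESeq2 (adjusted p = 0.0021), limma-voom (adjusted p = 0.0446) and edgeR with replicate number as a second term (adjusted p = 3.85e-09).

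The other chains of collagen VI differed less. COL6A2, which lies downstream of COL6A1 on the same strand (46098097 to 46132849), read 6.54, 5.64 and 5.90 FPKM against 7.53, 6.65 and 7.75 (0.24, SE 0.07, edgeR adjusted p = 0.157). COL6A3, the longest chain, which lies on chromosome 2, read 1.51, 1.44 and 1.45 against 1.68, 1.61 and 1.67 (0.14, SE 0.05, edgeR adjusted p = 0.228). In all 3 chains the groups were separate, though in COL6A2 the distance between control replicate 1 and SRPK2 replicate 2 was small. COL18A1 lies on the same arm of chromosome 21, from 45405137 to 45513720.

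COL7A1, the anchoring fibril collagen that ties epithelial basement membranes to the stroma, read 2.87, 2.47 and 2.85 FPKM in the controls and 3.44, 2.99 and 3.76 with SRPK2 (0.28, SE 0.08, edgeR adjusted p = 0.146). COL17A1, the transmembrane collagen of hemidesmosomes, read 2.92, 2.60 and 2.75 against 3.35, 3.19 and 3.22 (0.20, SE 0.06, edgeR adjusted p = 0.179). Both had separate groups. COL8A1 read 9.29, 9.33 and 10.18 against 10.50, 10.54 and 11.41, a narrow separation (0.14, SE 0.05, edgeR adjusted p = 0.223). COL13A1, the other transmembrane collagen tested, overlapped between the groups with 0.07 (SE 0.06, edgeR adjusted p = 0.513), or 0.02 without SRPK2 replicate 1. The 3 tested FACITs, COL12A1, COL16A1 and COL9A2, all overlapped, with log2 fold changes of 0.16, 0.20 and 0.12. Single libraries weighed on these values, which were 0.06 for COL12A1 without SRPK2 replicate 3, 0.11 for COL16A1 without SRPK2 replicate 1, and 0.06 and 0.20 for COL9A2 without control replicate 2 or 3. COL12A1 stood highest in SRPK2 replicate 3, at 4.23 FPKM against 2.99 to 3.45 in the remaining libraries.

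The same libraries tended to be high or low across the collagens. SRPK2 replicate 2 was the lowest of its group for 17 of the 23 genes, and control replicate 2 for 15. As deviations of log2 CPM from each gene's mean over the 6 libraries, the medians over the 23 genes were -0.05, -0.17 and -0.09 in the controls and 0.14, -0.01 and 0.12 with SRPK2. All collagen genes together took 0.0782% to 0.0855% of the reads in a control library and 0.0891% to 0.104% in an SRPK2 library. Without SRPK2 replicate 2, 6 collagen genes rose (COL4A2, COL5A1, COL6A1, COL6A2, COL7A1 and COL18A1), where 3.39% of all tested genes rose in the same fit, and the number of genes called over the whole table went from 75 to 1401. The same 6 rose when no filter on low counts was set, beside 1.31% of all genes.

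**Figure D3:**
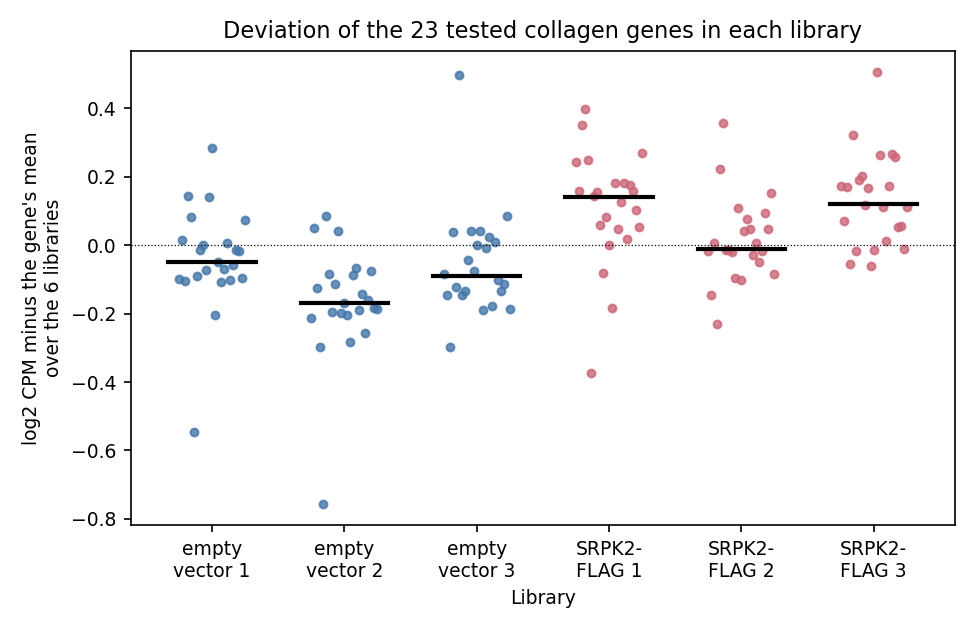
Deviation of log2 CPM from each gene's mean over the 6 libraries (vertical axis) for the 23 tested collagen genes in each library, with the median as a bar. The medians of the controls lie between -0.17 and -0.05 and those of the SRPK2 libraries between -0.01 and 0.14, with SRPK2 replicate 2 closest to the controls.

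Collagen transcripts are long. The longest coding transcript of the tested collagen genes had a median length of 6586 bases, against 2970 over the 16179 tested genes with a length, and a median of 55.9% G or C against 48.4%. When each library was adjusted for a trend with gene length, the median log2 fold change became 0.13 over 22 collagen genes. With transcript length in its place it became 0.11 over 23. Larger and smaller values moved. COL5A1 went from 0.27 to 0.20 and 0.19, and COL7A1 from 0.28 to 0.21 and 0.20 (gene and transcript length). COL18A1 went from 0.22 to 0.16 and 0.15, and COL4A4 from 0.28 to 0.21 and 0.19. COL9A2 had 0.12 and 0.11, against 0.12 before. COL6A3 went from 0.14 to 0.05 with either length, COL8A1 from 0.14 to 0.08 and 0.07, COL12A1 from 0.16 to 0.08 and 0.07, and COL4A1 from 0.10 to 0.03 and 0.04 (gene and transcript length). COL15A1 went from 0.08 to 0.04 and 0.02, COL1A2 from 0.07 to 0.01 with either, and COL4A6 from -0.09 to -0.15 and -0.16. COL13A1 went from 0.07 to 0.004 with gene length and to 0.05 with transcript length. COL4A2 went from 0.23 to 0.15 and 0.16, and COL16A1 from 0.20 to 0.14 and 0.13 (gene and transcript length). COL24A1 went from -0.05 to -0.12 with transcript length. Smaller shifts were seen for COL6A2, from 0.24 to 0.22 and 0.21, and COL1A1, from 0.35 to 0.30 and 0.29. COL17A1 went from 0.20 to 0.16 and 0.14, and COL5A2 from 0.48 to 0.43 and 0.41. COL6A1 remained past the threshold after both, with log2 fold changes of 0.32 and 0.30 (edgeR adjusted p = 0.0315 and 0.0237). An adjustment for G and C content left the collagen median at 0.16.

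Because the chains of a collagen type assemble into trimers, the ratio of their FPKM values was compared for 6 pairs. COL6A1 exceeded COL6A3 by a ratio of 8.89 ± 0.57 in the controls and 10.3 ± 0.707 with SRPK2, and COL6A2 by 2.17 ± 0.0596 and 2.33 ± 0.0704 (SD, n = 3 each). In both pairs each SRPK2 library had a higher ratio than each control. COL4A1 relative to COL4A2 was at 0.553 ± 0.0158 in the controls and 0.506 ± 0.0163 with SRPK2 (SD, n = 3 each), and here each SRPK2 library was lower. For these 3 pairs the log2 ratios had an exact permutation p of 0.1 (two-sided), the lowest value possible with 3 libraries a group, and 0.2 after Benjamini-Hochberg adjustment over the 6 pairs.

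The remaining pairs overlapped between the groups. COL1A1 exceeded COL1A2 by a ratio of 3.01 ± 0.60 in the controls and 3.54 ± 0.373 with SRPK2, and COL5A1 exceeded COL5A2 by 93.3 ± 26.3 and 79.5 ± 7.26 (SD, n = 3 each). COL4A5 and COL4A6, although arranged head to head like COL4A1 and COL4A2, were unequal, with a ratio of 7.11 ± 1.28 in the controls and 7.37 ± 0.602 with SRPK2 (SD, n = 3 each). The log2 difference of COL5A1 over COL5A2 went from -0.20 to 0.02 without control replicate 2, and that of COL4A5 over COL4A6 from 0.07 to -0.09 without control replicate 1. The adjusted p of these pairs lay between 0.45 and 0.9 in the same exact permutation test. The size of a ratio depends on the gene length used. With reads divided by the length of the longest coding transcript, a measure chosen after the data were seen, COL4A1 over COL4A2 was 0.413 in the controls and 0.378 with SRPK2, COL6A1 over COL6A3 was 5.81 and 6.73, and COL1A1 over COL1A2 was 1.98 and 2.37. The annotated spans of COL4A1 and COL4A2 overlap on opposite strands, and exonic bases of COL18A1, COL1A2 and COL16A1 lie within the spans of opposite-strand genes, SLC19A1 (623 reads) and antisense genes of 36 and 10 reads. The strand option of the counting is not known from the labels, which leaves the counts of these genes uncertain to that extent.

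**Figure D4:**
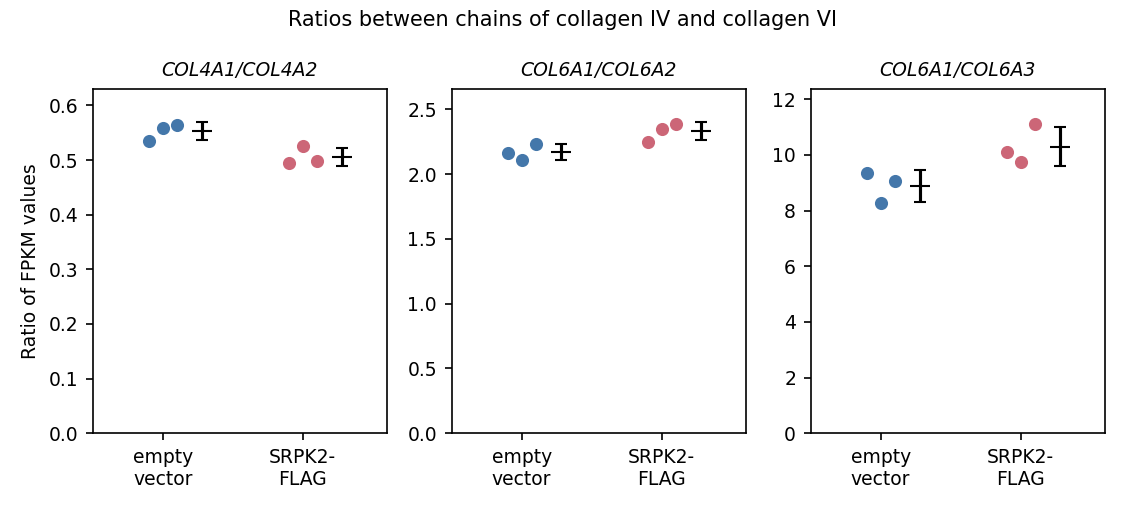
Ratio of deposited FPKM values (vertical axes, from 0) between collagen chains in each library of the empty-vector (blue) and SRPK2-FLAG (red) groups, with mean and SD in black. COL4A1/COL4A2 is lower and COL6A1/COL6A2 and COL6A1/COL6A3 are higher in every SRPK2 library than in every control.

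The genes that make, secrete, bind and degrade collagen did not pass the threshold. Of 57 listed genes 48 were tested, and 0 rose or fell in edgeR (0 with DESeq2 or limma-voom), beside 0.458% of all tested genes. At an unadjusted p under 0.05 in edgeR there were 9, a share near the 17.3% of all tested genes. More of them pointed upward, with 34 of the 48 above 0 on the log2 scale, beside 51.2% of all tested genes. In CPM the groups were separate with SRPK2 higher for 10 of the 48 (11.5% of all tested genes). They were separate with SRPK2 lower for 2 (8.71%). The median over the 48 genes was 0.07 on the log2 scale. Enzymes and chaperones of chain folding had a median of 0.03 over 18 genes. PPIB, a prolyl isomerase of the endoplasmic reticulum, had -0.08 (SE 0.07) and P4HB, a subunit of prolyl 4-hydroxylase, 0.01 (SE 0.05). Genes of collagen export had a median of 0.10 over 7. CREB3L1, a transcription factor of secretory cells, had 0.15 (SE 0.08) and KLHL12, an adaptor for the ubiquitination that enlarges transport vesicles, 0.02 (SE 0.06). MIA3, which encodes the cargo receptor TANGO1 and is named after its values were seen, read 3.35, 3.25 and 3.53 FPKM in the controls and 3.90, 3.92 and 4.45 with SRPK2, with separate groups (0.24, SE 0.06, edgeR adjusted p = 0.107).

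Outside the cell, propeptide cleavage and crosslinking genes had a median of 0.03 over 11, and the lysyl oxidases LOXL2 and LOXL4, which crosslink collagen, had 0.09 (SE 0.05) and 0.03 (SE 0.06). All 7 tested collagen receptor genes had values above 0, beside 51.2% of all tested genes, with a median of 0.13 and a range from 0.05 to 0.51. ITGA2 and ITGB1, the chains of the collagen-binding integrin of epithelial cells, stood at 22.0 and 39.3 FPKM in the controls with log2 fold changes of 0.21 (SE 0.07, edgeR adjusted p = 0.187) and 0.13 (SE 0.07). Among 5 degrading enzymes the median was 0.09. MMP14, the membrane-bound collagenase, had 0.09 (SE 0.06) and MMP1, the interstitial collagenase, -0.15 (SE 0.07). With SRPK2 replicate 2 left out, 3 of the 48 rose, beside 3.39% of all tested genes.

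Markers of the line and of other cell types were examined in the same libraries. VIM, CD44, MSN, KRT18 and AXL summed to 1113 to 1148 FPKM in the controls and 1103 to 1176 with SRPK2, ESR1 and PGR had 5 and 14 reads in all, and ERBB2 stood at 4.09 FPKM in the controls. Fibroblasts, the main source of collagen in tissue, were represented by 7 markers. Of these 4 were tested and 0 passed in edgeR, DESeq2 or limma-voom. At an unadjusted p under 0.05 in edgeR there were 2 of the 4, beside 17.3% of all tested genes. The summed level of the 7 markers was 1.51 to 1.65 FPKM in the controls and 1.89 to 2.16 with SRPK2, mostly from LUM and FBLN1. The labels name no cells other than MDA-MB-231. A link between these markers and the collagen values was not tested. In bulk samples the number of cells with a transcript and its amount per cell cannot be told apart. LUM, a collagen-binding proteoglycan, read 0.84, 0.84 and 0.79 FPKM in the controls and 1.11, 1.24 and 1.26 with SRPK2, without overlap (0.52, SE 0.13, edgeR adjusted p = 0.115). PDGFRB, a growth factor receptor, was also separate between the groups (0.41, SE 0.16, edgeR adjusted p = 0.235), while FBLN1 overlapped (0.05, SE 0.12). The other 4 markers, THY1, POSTN, PDGFRA and DCN, had 1, 6, 12 and 74 reads over all 6 libraries. Endothelial and leukocyte markers, with 1 tested gene each, summed to at most 0.55 and 1.75 FPKM in any library.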

How the data were processed

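RNA sequencing data of 6 libraries, 3 with an empty vector and 3 with SRPK2-FLAG, were grouped by their titles. The submitters' processing notes name bcl2fastq, FastQC, HISAT2 and GRCh38, while how reads were assigned to genes (program, strand option, gene models) is not given in the sources used here. The authors deposited whole-number read counts per gene (29710 genes, 31140537 to 36908878 reads a library) and FPKM values rounded to 2 decimals. Differences in counts were computed in R 4.3.3 by edgeR 4.0.16 (TMM, glmQLFit and glmQLFTest, two-sided, group as the only term) over the 16360 genes with at least 60 reads in all, with Benjamini-Hochberg adjustment over all of them and a threshold of 0.05. Each SE was derived from the fold change and its F statistic. Replicates varied by 5.85% (common biological coefficient of variation). Scripts were tested on simulated counts.

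Alternatives were other scalings and filters, DESeq2 1.42.0, limma 3.58.1 (voom, or log2 of FPKM plus 1 or 0.1), a replicate block, loess corrections (span 0.3) for gene length (from reads and FPKM) and leaving out each library. Corrections for transcript length and G and C content (GENCODE 29) were alternatives chosen after seeing the data. The members, gene lists and rules were chosen with earlier results of these data known. Full statistics were given for collagens past the threshold, the 3 most abundant and the 2 with the largest absolute change of each class, and for the 2 most abundant machinery genes of each role, while the others were given by values or ranges. Promoters came from RefSeq (GRCh38.p14). Figures were drawn with matplotlib 3.10.9 in Python 3.11.15. P-values measure the spread between these libraries, which the series calls biological replicates.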

Additional observations from a re-analysis of the deposited data

How the results depend on the processing

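The number of collagen genes past the threshold, 1 in edgeR, was 0 with RLE size factors, with a mean CPM of at least 5 (15 tested) and in limma on log2 FPKM at either pseudocount, filtered or not, 6 with no filter on low counts, and 0 to 6 when 1 library was left out. COL6A1 kept its direction in all 21 alternatives, with log2 fold changes of 0.29 to 0.41, and passed in 11. The median of the tested collagens lay between 0.10 and 0.21. Over all genes the 75 calls became 997 with no filter (6 collagens beside 1.31% of all genes that rose), 152 with DESeq2, 12 and 13 on log2 FPKM plus 1 and 0.1, 18 without a filter on FPKM, 131 after the transcript length correction, and 27 to 1401 when 1 library was left out. Machinery genes numbered 3 with no filter, all higher, beside 1.31% of all genes that rose. When 1 library was left out they numbered 0 to 3, with the 3 found without SRPK2 replicate 2, beside 3.39% of all tested genes. The cause of these differences was not tested.

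Same-numbered control and SRPK2 libraries deviated together with correlations of 0.0923, 0.246 and 0.188, so the numbers were not taken as pairs by the rule used (every correlation over 0.1), although each library correlated best with its own number. With a replicate block 3907 genes were called, among them 12 collagen genes (all higher, beside 10.8% of all genes) and 19 machinery genes (17 higher, 2 lower). With the block and the gene length correction 3324 genes were called (1063 higher, 2261 lower), with 7 collagen genes higher and 0 lower, beside 6.58% of all genes that were higher, and 9 machinery genes, 7 higher and 2 lower.

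Among the log2 fold changes of the tested collagens, reversals of sign concerned only COL4A5, COL27A1, COL4A6, COL1A2 and COL24A1, none of which passed in any alternative. The chain ratios COL5A1/COL5A2 and COL4A5/COL4A6 also changed sign when 1 library was left out (-0.35 to 0.02 and -0.09 to 0.17). COL4A5, at 0.0005 in the reported fit, had -0.01 with RLE size factors and DESeq2, -0.001 with no filter and with the replicate block, -0.002 with limma-voom and after the G and C correction, and -0.07 after the gene length correction, with or without the block, and the transcript length correction. COL27A1 had -0.02 after the gene length correction, with or without the block, and after the transcript length correction, and -0.01 to 0.14 when 1 library was left out. When 1 library was left out COL4A5 had -0.10 to 0.05, COL4A6 -0.19 to 0.04, COL1A2 -0.12 to 0.20 and COL24A1 -0.28 to 0.23. COL24A1, COL5A2, COL1A2, COL4A4 and COL4A6 had 63 to 437 reads over 6 libraries and SEs of 0.16 to 0.37, wider than the 0.07 of COL6A1.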
